A study of Mus musculus with 4 samples.

Results

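The basal keratin genes Krt5, Krt14, Krt15 and Krt17 and the p63 gene Trp63 were followed on 4 microarrays of transplanted mouse mammary cells. They were chosen by name, and all probe sets that the platform annotation gave to exactly 1 of these symbols were taken. Of the 5 genes, 4 had such a probe set, 8 of them in all among 45141 probe sets, and for Krt17 no probe set was named. For each gene the probe set brightest on average over the 4 arrays is described first, and the same choice was made for all 17097 genes that could be named. Krt5 and Krt15 had 1 probe set, Krt14 had 2 and Trp63 had 4.

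The BC alone group had received 10000 BC cells per transplant, which the labels call multipotent, and the BC and LC control group a mixture of 2000 BC and 8000 LC cells, called unipotent. The labels leave BC and LC unexplained; in mammary biology they commonly stand for basal and luminal cells. In both groups, cells were sorted 3 days after transplantation and RNA from 50 of them went onto each array, with 2 arrays per group. Neither the animals, their age and strain, nor the sorted gate is given in the sources used here, so the spread between arrays may be technical. Since the control had LC cells as well as fewer BC cells, effects of these cannot be told apart.

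Keratins are intermediate filament proteins that assemble as pairs of a type I and a type II chain. Krt5, a type II keratin, and Krt14, its type I partner, form the filaments of basal cells in stratified and glandular epithelia. In the mammary gland they mark the basal layer, which holds myoepithelial cells and cells with stem cell activity on transplantation. Krt15 and Krt17 are further type I keratins, the former of basal keratinocytes and hair follicle stem cells and the latter of appendages and injured epidermis. Trp63 encodes p63, a transcription factor of the p53 family that maintains basal epithelial cells and is known to control Krt5 and Krt14.

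In the reference gene table of GRCm38.p6, Krt14 lies on chromosome 11 at 100203162 to 100207510, in the same type I keratin cluster as Krt15 (100131759 to 100135949) and Krt17 (100256215 to 100261029). Krt5 lies in the type II cluster on chromosome 15 at 101707069 to 101712905. Trp63 spans 25683763 to 25892088 on chromosome 16. The sequence just upstream of Krt5 is shown because its values were low on the same array, control replicate 2, as those of Trp63. That trait is common: of 2098 genes with a mean of at least 8 on the other 3 arrays, 97.7% were lowest there. Control of Krt5 by p63 in these cells was not tested. It is the 250 bases before the RefSeq transcription start on the minus strand, at chr15:101712906-101713155 of GRCm38.p6, written 5′ to 3′. Capitals mark, in order, a match to the half-site bound by the p53 family, AGGCATGCCC, and an ATAAAA match near the start.
Krt5: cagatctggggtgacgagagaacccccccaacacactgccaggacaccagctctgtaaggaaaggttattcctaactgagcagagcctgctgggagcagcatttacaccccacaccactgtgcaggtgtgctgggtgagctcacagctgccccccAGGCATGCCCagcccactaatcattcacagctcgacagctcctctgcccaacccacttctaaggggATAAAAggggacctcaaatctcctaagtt
The half-site match spans positions -95 to -86 from the start and the ATAAAA match positions -29 to -24. Of 32851 RefSeq promoter windows of this length, 7.13% held a p53-family half-site and 17.0% ATAAAA on either strand. Neither TATAAA, the AP-2 motif GCCNNNGGC, the AP-1 motif TGANTCA nor the Sp1 motif GGGCGG was in this window, against 12.4%, 13.7%, 6.75% and 32.7% of all windows. The motifs were chosen with the Krt5 sequence in view, and a match is a description of letters, not a binding site. Of the list of p63 target genes used below, 13 had a window in the table, and 0 of these held a half-site match. The table's Krt14 window belongs to a start 1480 bases inside the gene and is not shown.

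Krt5, Krt14 and Trp63 were high on 3 of the 4 arrays, both BC alone arrays and control replicate 1, and far lower on control replicate 2. That array also stood apart over all probe sets. Its values had an SD of 1.44 against 1.90 to 1.92 on the others, and it correlated with them at a Pearson r of at most 0.919 across probe sets, where the other 3 reached 0.972 among themselves. Probe sets of an array are not independent. The 18 hybridisation controls of bacterial and phage origin had a median of 9.70 log2 there, against 8.59 to 8.88 elsewhere, and the mean of the 6 actin and Gapdh control probe sets was 10.74 against 11.54 to 11.64. The difference between the 3′ and 5′ actin controls, a sign of RNA integrity, was -0.35 there and -0.44 to -0.37 elsewhere, and that of Gapdh 0 against -0.23 to -0.17. Comparisons of means are therefore given with and without control replicate 2. The part of these array differences in the results was not tested, and in such bulk samples fewer cells of a type and less RNA per cell cannot be told apart.

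Krt5 had a log2 expression value of 10.47 and 10.22 on the BC alone arrays, then 10.76 and 7.12 on control replicates 1 and 2. The highest and the lowest value were thus both controls, and the groups overlapped. Its mean was 1.405 higher in BC alone on the log2 scale, a 2.65-fold difference, with a standard error of 1.14 and a 95% interval from -1.44 to 4.25 (limma over 17097 genes, adjusted p = 0.842). Against control replicate 1 alone, the difference was -0.415, or 1.33-fold in the opposite direction, while the BC alone arrays differed from each other by 0.25.

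Krt14, the filament partner of Krt5, had 10.23 and 9.80 on the BC alone arrays, then 10.49 and 6.78 on control replicates 1 and 2. Again a control was highest and the other control lowest. The mean difference was 1.38 log2 in favour of BC alone, with a standard error of 1.16 and a 95% interval from -1.53 to 4.29 (limma, adjusted p = 0.842), and it was -0.475 against control replicate 1 alone. The BC alone arrays were 0.43 apart, so the latter difference was about the size of the spread between them.

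Trp63 had 8.74 and 8.76 on the BC alone arrays, then 8.81 and 5.20 on control replicates 1 and 2. The 3 high arrays lay within 0.07 log2 of each other, and 5.20 was next to 5.17, the brightest non-specific control probe set of control replicate 2. The mean was 1.745 log2 higher in BC alone, with a standard error of 1.13 and a 95% interval from -1.07 to 4.56 (limma, adjusted p = 0.842), and the difference was -0.06 against control replicate 1 alone.

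Krt15 did not follow the other members. Its values were 5.62 and 5.65 in BC alone and 5.93 and 5.95 in the control, so the groups did not overlap and control replicate 2 did not stand apart. The difference was -0.305 log2, with a standard error of 0.29 and a 95% interval from -1.04 to 0.43 (limma, adjusted p = 0.842). Among all genes, 19.6% lay lower in BC alone with no overlap. On the 3 other arrays these values were inside the range of the 23 non-specific control probe sets, which reached 6.27 to 6.62 there, and on control replicate 2 above it, at 5.95 against a highest control of 5.17. Non-specific controls rise with the GC content of their probes, so they bound the background only loosely, and Krt15 was not tested against background.

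**Figure D1:**
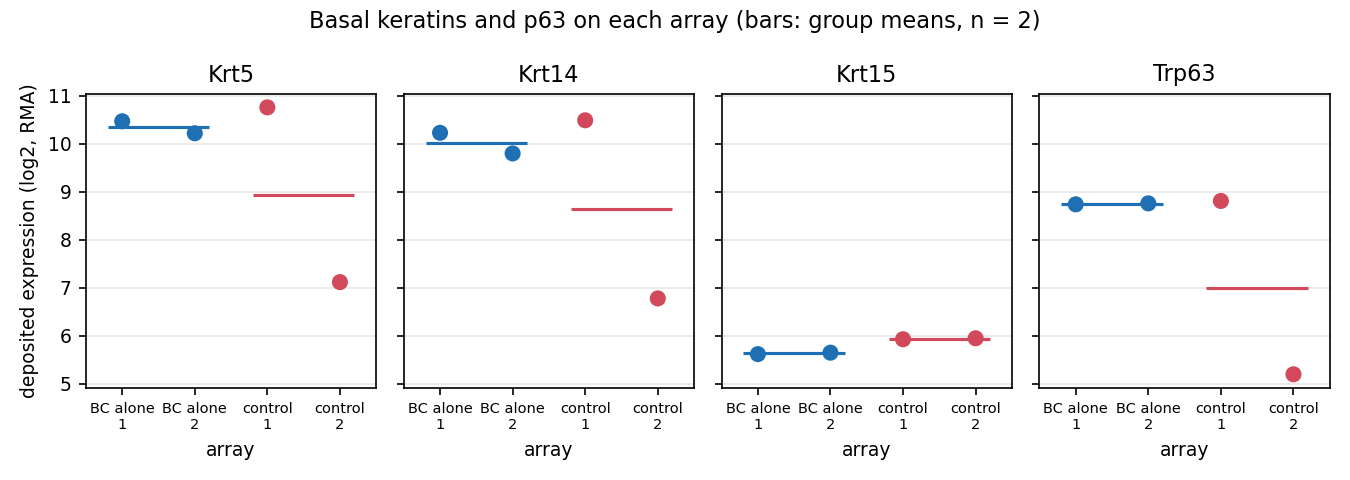
Deposited log2 expression (y axis) of Krt5, Krt14, Krt15 and Trp63 on the 4 arrays (x axis), blue for BC alone and red for the BC and LC control, with bars at the group means of 2 arrays. Krt5, Krt14 and Trp63 are at 7.12, 6.78 and 5.20 on control replicate 2, far below their other values, while Krt15 lies between 5.62 and 5.95 on all arrays.

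No member passed an adjusted p of 0.05 in limma, and neither did any of the 17097 genes, so the share called was 0%. At an unadjusted p under 0.05 limma had 0 of the 4 members and 680 genes, or 3.98% of all. With an intensity trend in the variance model 97 genes passed and with a robust one 0, and no member was among them. The count of 97 rests mostly on a variance shared by genes of like brightness. None of the 4 members differed by at least 1 log2 without overlap, where 4.79% of all genes lay higher in BC alone by that rule and 0.895% lower, and 1 of the 4, Krt15, had no overlap at any size, against 36.4% of all genes. Ignoring overlap, 3 of the 4 were at least 1 log2 higher in BC alone, against 6.15% of all genes. These 3, Krt5, Krt14 and Trp63, were among 2098 genes with a mean of at least 8 on the arrays other than control replicate 2. Of those genes 97.5% had a higher mean in BC alone, with a median of 0.775 log2. With 2 arrays a group, the smallest p an exact two-sided permutation test allows is 0.333, so none was used.

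Against control replicate 1 alone, all 4 measured members were lower in BC alone, with the differences given above for Krt5, Krt14 and Trp63 and -0.295 for Krt15. Control replicate 1 lay above both BC alone arrays for each of them, as it did for 33.8% of all genes. None reached a difference of 1 log2, which 4.35% of genes did in either direction and 2.11% in this one. With 1 control array this comparison has no replicate check on that side.

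The probe sets of a gene agreed for Krt14 and in part for Trp63. A name ending in x_at marks a probe set that may also bind other transcripts, and one ending in a_at a set shared by several transcripts of the gene. The Krt14 values above come from 1423935_PM_x_at, and keratin genes are close in sequence. The other Krt14 probe set, 1460347_PM_at, had 9.46 and 8.79 in BC alone and 9.68 and 5.51 in the control, and so was also lowest on control replicate 2, by 3.28 log2 from the nearest array. Its difference from control replicate 1 was -0.555.

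Trp63 is read above from 1452027_PM_a_at. The next in brightness, 1451876_PM_a_at, had 7.23 and 7.0 with BC alone and 6.03 and 4.29 with the mixture. Here the groups did not overlap, and BC alone was 1.085 log2 higher than control replicate 1. The mean difference was 1.955 log2 with a standard error of 0.60 (limma over all 45141 probe sets, adjusted p = 0.843), and it had an unadjusted p under 0.05. Over all probe sets 3.62% were at least 1 log2 higher in BC alone without overlap, 4.12% had such a p in either direction, and 1.80% were at least 1 log2 higher than control replicate 1. The third, 1418158_PM_at, had 6.22 and 6.65 against 6.46 and 4.82, with a difference of -0.025 from control replicate 1, close to 0 like that of the brightest. The fourth, 1459581_PM_at, stayed between 2.80 and 3.06 on all arrays, within the range of the non-specific controls. Which p63 transcripts each probe set reads is not given in the sources used here, and 1451876_PM_a_at is singled out after its values were seen.

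**Figure D2:**
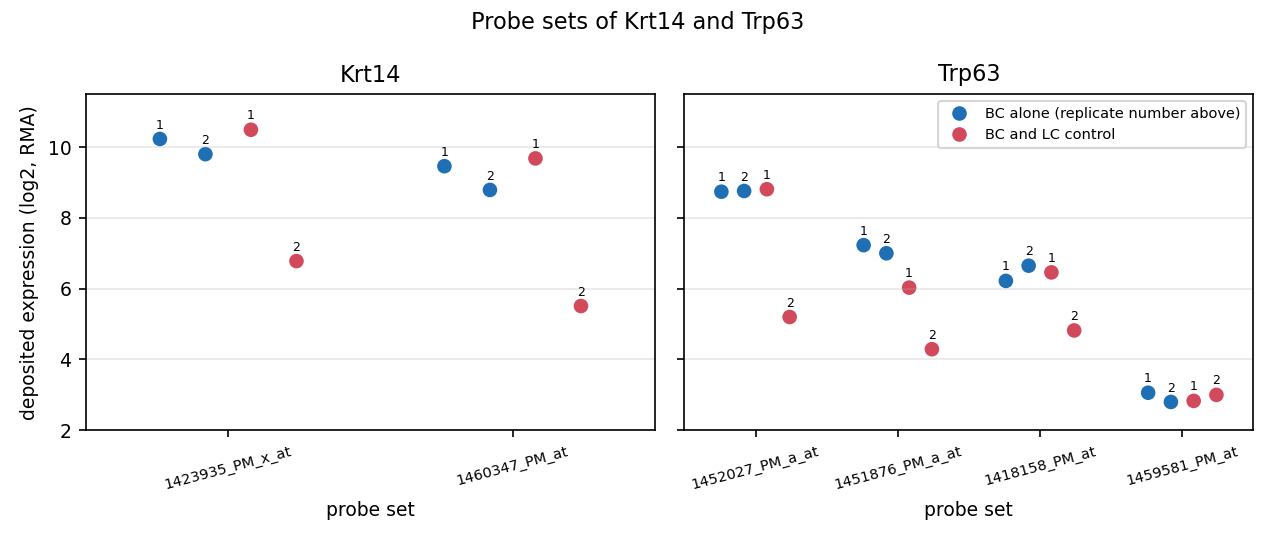
Deposited log2 expression (y axis) of each Krt14 and Trp63 probe set (x axis) on the BC alone arrays (blue) and the control arrays (red), with the replicate number above each point. Control replicate 2 is lowest for both Krt14 probe sets and for 3 of the 4 Trp63 probe sets, and 1451876_PM_a_at alone of the Trp63 sets also has control replicate 1, at 6.03, well below the BC alone arrays at 7.23 and 7.0.

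Percentiles within an array do not depend on the width of its values. The Krt5 probe set stood at the 98.6th to 99.3rd percentile of all probe sets on the 3 high arrays and at 92.5 on control replicate 2. Krt14 stood at 97.9 to 99.0 on those arrays and at 89.5 on control replicate 2, and Trp63 at 94.7 to 95.1 and at 63.7. The BC alone arrays had Krt15 at 69.8 and 70.1, and control replicates 1 and 2 had it at 73.8 and 78.1, so its highest percentile was on control replicate 2. Control replicate 1 lay above both BC alone arrays for all 4 genes.

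Control replicate 2 had lower values than the other arrays for most genes bright on those arrays. Of 2098 genes with a mean of at least 8 on the other 3 arrays, 97.7% were lowest there, with a median gap of 1.305 log2 to the lowest of the other 3. This choice leaves out control replicate 2, so a low value there is partly built in. With a looser cut, a mean over all 4 arrays at or above the median of all probe sets, 52.6% of genes were lowest there, with a median gap of 0.065. The gap was 3.10 for Krt5, 3.02 for Krt14 and 3.54 for Trp63, or 8.57-fold, 8.11-fold and 11.6-fold. A gap of at least 3 log2 on that array was present for 33 of all genes, or 0.193%, and for 1.53% of the bright ones. On control replicate 1 it was present for 1 gene and on each BC alone array for 0. Ordered by this gap, Trp63 was the 15th, Krt5 the 30th and Krt14 the 32nd of the 33 genes, Krt14 with the same gap as Plekhb1. Krt15 was 0.02 log2 above the highest of the other arrays there.

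**Figure D3:**
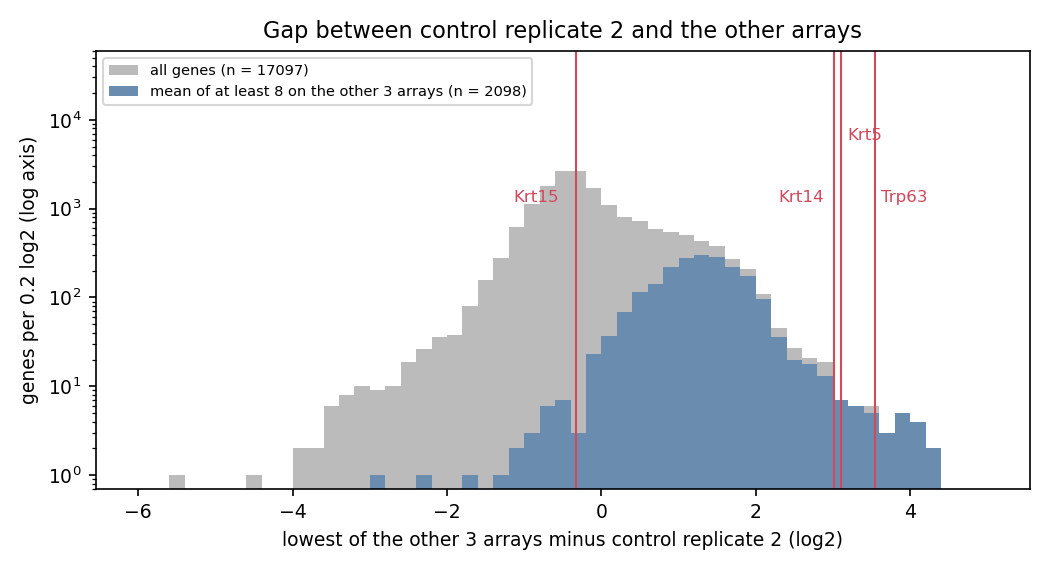
Number of genes per 0.2 log2 (y axis, log scale) by the gap between the lowest of the other 3 arrays and control replicate 2 (x axis, log2), in grey for all 17097 genes and in blue for the 2098 bright ones. Red lines mark Krt15 at -0.33, Krt14 at 3.02, Krt5 at 3.10 and Trp63 at 3.54.

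These gaps depended on the scaling in size but not in direction. Quantile normalization of the 4 deposited columns brought the median gap of the bright genes to 0.08 and left 1.89 for Krt5, 1.94 for Krt14 and 3.23 for Trp63. Cyclic loess left 1.46, 1.46 and 2.35, with a bright-gene median of -0.10. Scaling on the actin and Gapdh controls, chosen after seeing the data, left 2.30, 2.22 and 2.64. Among the bright genes, between 0.667% and 2.43% had gaps as large as these members under the 5 scalings. The difference from control replicate 1 alone hardly moved, running from -0.469 to -0.41 for Krt5, from -0.526 to -0.47 for Krt14, from -0.321 to -0.2875 for Krt15 and from -0.088 to -0.055 for Trp63.

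**Figure D4:**
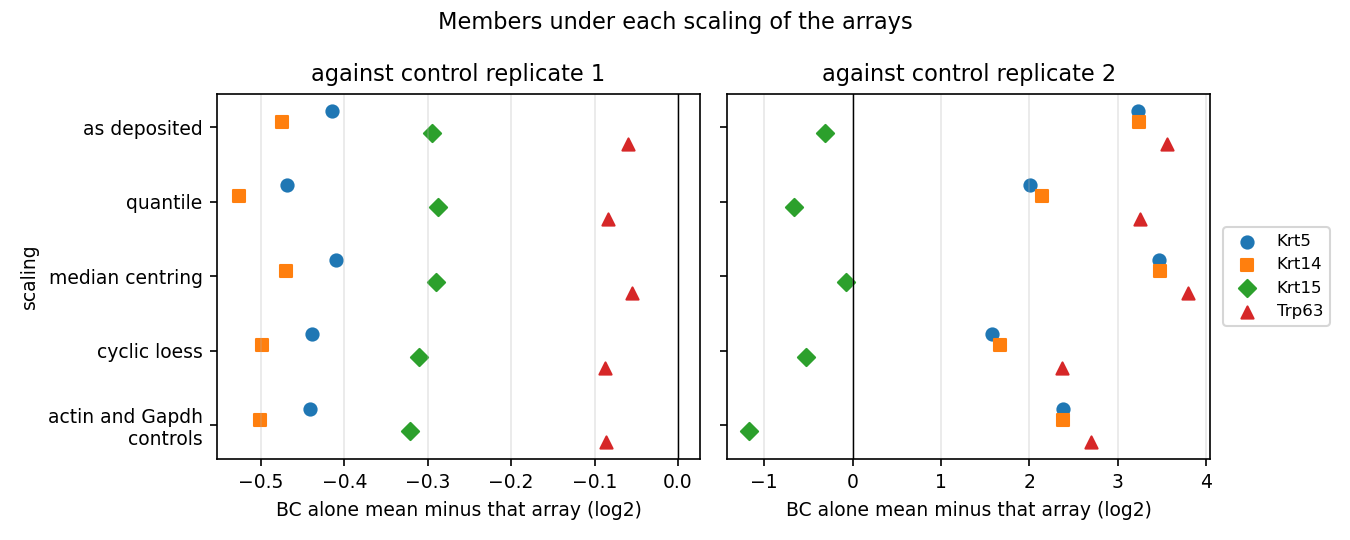
Difference between the BC alone mean and control replicate 1 (left) or control replicate 2 (right) on the log2 scale (x axes, of different span) for the 4 measured members under each scaling of the arrays (y axis). On the left all points are below 0, from -0.526 to -0.055. On the right Krt5, Krt14 and Trp63 stay above 0 and Krt15 below it.

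Krt5 and Krt14 were nearer to each other in their pattern over the arrays than either was to any other gene. Likeness was the root mean square distance, over the 4 arrays, between log2 values centred on each gene's own mean. The distance between Krt5 and Krt14 was 0.069, and 0 of the other genes were nearer to either. From Trp63 the distance was 0.195 to Krt5 and 0.245 to Krt14, with 7 genes nearer to Trp63 than Krt5 was. Krt15 was 1.55 to 1.64 from the others. Over the 4 arrays the centred values of Krt5 relative to Krt14 spanned 0.18 log2, although each spanned more than 3.6. With 4 arrays, of which 1 stands far from the rest, this likeness mostly reads how low a gene is on control replicate 2, and the chance that a Krt14 probe binds other keratin RNA was not tested.

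The non-member nearest to both Krt5 and Krt14 was Fst, which encodes the activin antagonist follistatin, at 0.104 and 0.111. Fst had 8.30 and 8.02 in BC alone and 8.76 and 5.16 in the control. Nearest to Trp63 was Pdpn, podoplanin, a membrane glycoprotein found on basal epithelial cells, at 0.090. Pdpn had 9.13 and 9.21 in BC alone and 9.40 and 5.80 in the control. Nearest to Krt15 was Iqch at 0.011, with 2.88 and 2.89 against 3.18 and 3.22. The 8 genes most like the mean pattern of the 4 measured members were Hacd1, Sox4, Nop58, Fat1, Crispld2, Chil1, Icam1 and Emid1, at distances of 0.036 to 0.094. That mean pattern holds Krt15 and is therefore shallower on control replicate 2 than that of Krt5.

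Among the 38 other keratin genes with a probe set, a low value on control replicate 2 was not general. Only Krt8 among them was at least 2 log2 below the lowest of the other arrays there, and 27 of the 38 were highest on that array, against 40.4% of all genes. Most of these were dim: among the 22 keratins with a mean below the median of all probe sets, 19 were highest there and 0 lowest. Dim genes in general were more often highest and seldom lowest there. Of all 17097 genes 6903 were highest and 5826 lowest, and 2162 and 5505 of these were among the 10470 at or above that median. Among the 16 brighter keratins 8 were highest and 5 lowest, against 20.6% and 52.6% of all genes at or above that median. Krt8, the type II keratin of simple and luminal epithelium, had 10.42 and 10.30 in BC alone and 10.16 and 8.0 in the control. Its partner Krt18 had 9.32 and 9.68 against 9.67 and 7.78, and Krt19, a further luminal keratin, 8.19 and 8.04 against 8.51 and 7.54. The gaps of 2.16, 1.54 and 0.50 were smaller than those of Krt5 and Krt14. Of 6 simple epithelial keratins, 4 had a higher mean in BC alone, with a median difference of 0.29, and 3 of 6 did against control replicate 1 alone, with a median of 0.015.

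The 6 keratins of a list drawn up as stress and activation keratins had lower means in BC alone. The list is not confined to keratins of injured epidermis, and 3 of the 6 were highest on control replicate 2, against 40.4% of all genes. All 6 on the list had a lower mean, with a median of -0.545, where the median over all genes was -0.04 and 46.7% had a higher mean, and 0 passed the adjusted p. A lower mean was common among keratins, since 31 of the 38 non-member keratins, these 6 included, had one, with a median of -0.255, and 24 of the 38 against control replicate 1 alone, with a median of -0.0475. Krt6a had 7.32 and 6.0 on the BC alone arrays, then 8.95 and 6.97 on control replicates 1 and 2, so here control replicate 1 was the high array. Its partner Krt16 had 6.55 and 7.35 against 7.81 and 7.16. Against control replicate 1 alone 5 of the 6 were lower, with a median of -0.5825 against 0.005 over all genes, and Krt6a differed by -2.29. Krt80, the next in brightness, was between 4.66 and 5.15 on all arrays.

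Suprabasal keratins and cornification genes, which mark differentiating layers above basal cells, were mixed, with 5 of 11 higher in BC alone and a median of -0.135, and 7 of 11 higher with a median of 0.105 against control replicate 1 alone. Krt4, a type II keratin of mucosal epithelia, had 4.81 and 5.02 on the BC alone arrays, then 4.97 and 8.08 on control replicates 1 and 2. It was thus highest on the array where Krt5 was lowest. Sbsn, suprabasin, had 8.90 and 8.88 against 6.09 and 8.21, and Krt10 5.15 and 6.11 against 5.26 and 4.67. On control replicate 2, 8 of the 11 were highest, against 40.4% of all genes. This list was dim, with medians of 3.72 to 4.16 on the 4 arrays, below the median of all probe sets, 4.46. Of genes at or above that median 20.6% were highest there, so among dimmer genes the share was above 40.4%. The count was not compared with equally dim genes.

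**Figure D5:**
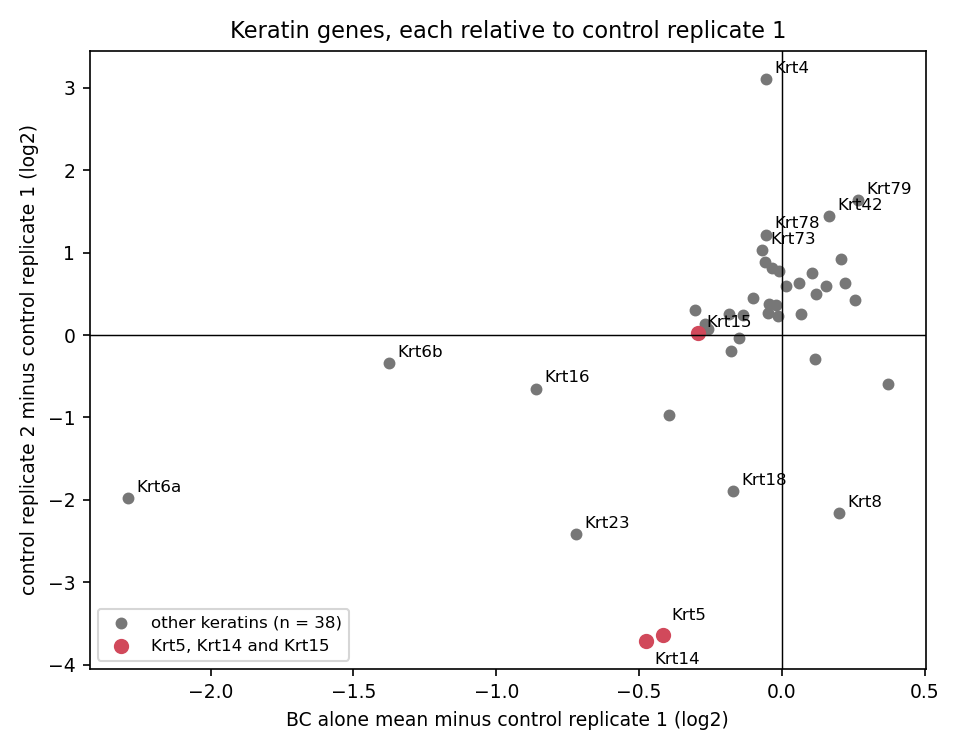
Each of the 41 keratin genes with a probe set by its BC alone mean minus control replicate 1 (x axis, log2) and control replicate 2 minus control replicate 1 (y axis, log2), with Krt5, Krt14 and Krt15 in red. Krt5 and Krt14 lie lowest, more than 3.6 below control replicate 1 on control replicate 2, Krt4 highest, and Krt6a farthest left at -2.29.

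Genes of the adhesion complex that anchors Krt5 and Krt14 filaments to the basement membrane were lowest on control replicate 2, as were most bright genes. Of 8 measured hemidesmosome and laminin-332 genes, 8 had a higher mean in BC alone, with a median of 0.915, and 8 were lowest on control replicate 2, each by at least 1 log2. Of the bright genes 97.7% were lowest there and 70.4% by at least 1 log2. Genes with a mean of at least 8 on the other 3 arrays had a higher BC alone mean in 97.5% of cases, with a median of 0.775. Leaving out control replicate 2, 3 of the 8 were higher, with a median of -0.0225, against 8606 of all 17097 genes, with a median of 0.005. Col17a1, the hemidesmosomal collagen XVII, had 9.57 and 9.11 on the BC alone arrays, then 9.58 and 4.92 on control replicates 1 and 2. Its gap of 4.19 was larger than that of any member. Itgb4, the integrin beta 4 chain, had 8.12 and 8.51 against 8.21 and 6.90, and Plec, plectin, which links keratin to that integrin, 9.99 and 9.71 against 9.70 and 8.25. Dst, the epithelial form of which is the plakin BP230, had 9.82 and 9.45 against 9.65 and 7.73, and the tetraspanin Cd151 10.27 and 9.95 against 10.14 and 8.72. The gaps of Itgb4 and Cd151, 1.22 and 1.23, were below the bright-gene median of 1.305, and those of Plec and Dst were 1.45 and 1.72. A gap of at least 2 log2 was present for 4 of the 8, against 10.6% of the bright genes.

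Desmosome genes, whose products tie keratin filaments to cell junctions, were less uniform. Of 11 measured, 7 had a higher mean in BC alone, with a median of 0.095, against 46.7% of all genes and 97.5% of the bright ones. On control replicate 2, 5 were lowest by at least 1 log2, against 12.1% and 70.4%. Without that array 3 of 11 were higher, with a median of -0.215, against 8606 of all 17097 genes, with a median of 0.005. Dsp, desmoplakin, had 10.57 and 10.41 in BC alone and 10.35 and 7.57 in the control. Jup, plakoglobin, had 9.19 and 9.36 against 9.46 and 7.52. Perp, a desmosomal membrane protein and p63 target, had 9.21 and 9.32 against 9.48 and 6.47.

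Most genes known as p63 targets were lowest on control replicate 2, as were most bright genes. Of 20 measured from a list of 25, 12 had a higher mean in BC alone, with a median of 0.8225. The share was 46.7% over all genes and 97.5% over the bright ones, which had a median of 0.775. On control replicate 2, 14 were lowest, against 34.1% of all genes and 97.7% of the bright ones, and 13 were so by at least 1 log2, against 12.1% and 70.4%. Without that array 6 of the 20 were higher, with a median of -0.135, against 8606 of all 17097 genes, with a median of 0.005. Fgfr2, a fibroblast growth factor receptor, had 9.72 on both BC alone arrays, 9.80 on control replicate 1 and 7.58 on control replicate 2. Hbegf, an EGF receptor ligand, had 8.86 and 8.97 against 9.43 and 8.58. Col17a1, Itgb4, Dst and Perp are also on this list.

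Among relatives and regulators of p63, Trp73, the p73 gene, lay between 3.95 and 4.46 on all arrays, and for Trp53 no probe set was named. Tfap2c, the AP-2 gamma factor of epithelial progenitors, had 8.26 and 8.14 in BC alone and 8.82 and 5.71 in the control, and so resembled Krt5 in having its highest and lowest value in the control. Klf4, an epithelial differentiation factor, had 9.84 and 10.18 against 9.94 and 8.26. Mdm2, a ubiquitin ligase of the p53 pathway, had 8.72 and 8.81 against 9.15 and 7.60, and Kmt2d, a histone methyltransferase, 8.85 and 9.10 against 9.09 and 7.05. Of 16 measured, 13 had a higher mean in BC alone, with a median of 0.5125, against 46.7% of all genes and 97.5% of the bright ones. Without control replicate 2, 6 of the 16 were higher, with a median of -0.045, against 8606 of all 17097 genes.

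Proteins that bind or modify keratins were represented by 12 genes, of which 10 had a higher mean in BC alone, with a median of 0.7025, and 7 without control replicate 2, with a median of 0.0775. A higher mean in BC alone was present for 46.7% of all genes and 97.5% of the bright ones, and without control replicate 2 for 8606 of all 17097 genes. The adaptor genes Ywhaz and Ywhaq, of the 14-3-3 family that binds phosphorylated keratins, were the brightest, with 11.70 and 11.69 against 11.59 and 10.38 and with 10.55 and 10.43 against 10.39 and 9.23. Their gaps on control replicate 2, 1.21 and 1.16, were near the bright-gene median.

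The contractile genes of myoepithelial cells, the other hallmark of the basal layer, were low on the same array. Acta2, smooth muscle actin, had 10.68 and 10.29 on the BC alone arrays, then 10.58 and 6.84 on control replicates 1 and 2. Myh11, smooth muscle myosin, had 10.29 and 9.86 against 9.79 and 5.68, and Tpm1, a tropomyosin, 10.44 and 10.17 against 10.27 and 7.87. Of 10 measured, 9 had a higher mean in BC alone, with a median of 1.40, against 46.7% of all genes and 97.5% of the bright ones. On control replicate 2, 7 had a gap of at least 2 log2, against 1.56% of all genes and 10.6% of the bright ones, and 4 of at least 3. Without that array 3 of the 10 were higher, with a median of -0.10, against 8606 of all 17097 genes, with a median of 0.005.

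Markers of other cell types were read beside these values. For comparison, 46.7% of all genes and 97.5% of the bright ones had a higher mean in BC alone. Against control replicate 1 alone, 8606 of all 17097 genes and 1119 of the 2098 bright ones were higher. Of 9 measured luminal markers, 6 had a higher mean in BC alone, with a median of 0.565, and 4 did against control replicate 1 alone, with a median of -0.125. Epcam had 9.45 and 10.02 against 10.11 and 7.54, and the milk protein gene Csn3 10.36 and 10.81 against 10.71 and 8.38. On both genes the BC alone arrays were nearer to control replicate 1 than control replicate 2 was, and the luminal summed level on the linear scale was 4709 and 5686 in BC alone and 5481 and 1715 in the control. Fibroblast markers had 7 of 8 higher in BC alone and 8 of 8 against control replicate 1, with summed levels of 5727 and 6396 against 3712.5 and 1301. Col1a1, Col3a1 and Dcn, the brightest of them, were at least 8.02 on every array. Endothelial markers had 6 of 6 higher, and 5 of 6 against control replicate 1, with summed levels of 787 and 773 against 444 and 324, and adipocyte markers 3 of 3 in both comparisons, with 652 and 714 against 384 and 371. Immune markers had 6 of 7 lower in BC alone, with 454 and 712 against 1331 and 852, and 7 of 7 against control replicate 1. RMA values have no 0, so no marker can be listed as absent. The part of any of these in the values of Krt5, Krt14, Krt15 and Trp63 was not tested.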

How the data were processed

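Single-channel Affymetrix-type arrays were read for 2 BC alone and 2 control samples. The authors deposited 1 log2 value per probe set and array, for which the submitters' processing notes name RMA, in the affy package. The sources used here state neither versions and build nor whether the arrays were normalised together. The platform annotation, which can be old, gave 28898 probe sets 1 symbol and 551 several, and did not name 15692. Sequences and loci are RefSeq's for GRCm38.p6. No 2 arrays held the same values.

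All 17097 genes were fitted in limma 3.58.1 under R 4.3.3 (lmFit and eBayes, no trend or block, two-sided, Benjamini-Hochberg over all genes, threshold 0.05, 2 residual degrees of freedom), with no filter on dim genes, and the fit was tested on simulated data. The number of arrays limits the precision. Alternatives changed scaling, probe set choice, variance model, filter, block and arrays. A gap of 1 log2 is 2-fold, and RMA compresses large differences.

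The members and lists were chosen with earlier results of these data known. The named genes are the members' probe sets, the 3 brightest non-members of each list, 10 genes by name and those nearest in pattern, and others are said to be chosen after their values were seen.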

Additional observations from a re-analysis of the deposited data

How the results depend on the processing

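No member passed the adjusted p in any of 14 alternatives. Leaving out control replicate 2 turned the sign of 3 members, to -0.415 for Krt5, -0.475 for Krt14 and -0.06 for Trp63. Over the fits that leave out 1 array, Krt5 ran from -0.415 to 3.225, Krt14 from -0.475 to 3.235, Trp63 from -0.06 to 3.55 and Krt15 from -0.32 to -0.29, the lone array of a group being assumed to vary like the other group. No other alternative turned a sign. Krt15, at -0.305 as reported, was -0.743 when scaled on the actin and Gapdh controls, -0.4725 after quantile normalization and -0.18 after median centring. Krt5 was 0.77 after quantile normalization and 0.57 after cyclic loess, Krt14 0.81 and 0.585, and Trp63 1.13 with the mean of its probe sets and 1.14 after cyclic loess. The number of genes past the adjusted p was 0 as reported, 97 with an intensity trend, 108 with the replicate block and 5 when scaled on the actin and Gapdh controls, and 0 whichever 1 array was left out. Replicate numbers are shared across groups but not said to pair arrays, and the deviations of same-numbered arrays correlated at -0.018 over genes, so the block, which leaves 1 residual degree of freedom, is given here only. With the replicate block Trp63 had an adjusted p of 0.083, Krt5 0.326, Krt14 0.354 and Krt15 0.984 in limma. All 4 had the same standard error of 0.51 in that fit, and of 0.61 when scaled on the actin and Gapdh controls. In these 2 fits the variance was thus pooled over genes, and neither the p-values nor the counts of 108 and 5 rest on a gene's own spread. With the intensity trend the standard errors were 0.96 for Krt5, 0.92 for Krt14, 0.73 for Trp63 and 0.52 for Krt15, in the order of their brightness. The count of 97 thus rests mostly on a variance shared by genes of like brightness, and little on a gene's own spread. Genes at least 1 log2 apart without overlap numbered 972 as reported, 614 after quantile normalization, 533 after cyclic loess, 620 with the mean of probe sets and 1952 over all probe sets, and 732 to 3824 without 1 array, the lowest without control replicate 2 and the highest without control replicate 1. Where counts moved, the cause was not tested. Krt17 could not be fitted.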

Other observations

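The 33 genes at least 3 log2 lower on control replicate 2 than on any other array, a group chosen after its values were seen, included Trp63, Krt5 and Krt14. Ecrg4 had the largest gap, 4.32, followed by Myl9, a myosin light chain, at 4.25, and Lama3, the alpha chain of laminin-332, at 4.20. The chemokine gene Cxcl14 had 10.36 and 10.43 on the BC alone arrays, then 10.30 and 6.29 on control replicates 1 and 2. The 33 also held genes of the extracellular matrix, among them Vcan at 3.91, Mmp2 at 3.77, Col5a2 at 3.66 and Postn at 3.43. None of these is on the list of 8 fibroblast markers. Of those 8, 0 had a gap of 2 log2 or more there, against 1.56% of all genes and 10.6% of the bright ones. Their gaps included 1.68 for Col1a1, 1.28 for Col3a1 and 1.89 for Dcn.

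Besides Krt4, the keratin genes at least 1 log2 above all other arrays on control replicate 2 were Krt42, Krt73, Krt78 and Krt79. Krt42 had 7.20 and 7.27 in BC alone and 7.07 and 8.51 in the control, and Krt78 6.36 and 6.21 against 6.34 and 7.56.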
